A study of Homo sapiens with 10 samples.

Results

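The proteasome is the protease that degrades ubiquitin-tagged proteins, and its subunits and several of its helpers are encoded by genes that share the PSM prefix. All genes of the expression table whose symbol runs from PSMA to PSMG followed by a number were taken, 48 in total, and 45 of them were analysed, those whose average over the 10 samples reached 0.5 FPKM, as it did for 12788 of 23284 genes. FPKM is a fragment count scaled to the length of the transcript and the size of the library. The 45 genes comprised 16 genes of the 20S core (7 alpha and 9 beta subunits), 20 genes of the 19S cap (6 ATPases and 14 non-ATPase subunits) and 9 activators and assembly factors (4 PSME genes, PSMF1 and 4 PSMG genes). The remaining 3 genes were PSMA8, listed at 0 in every sample, PSMB11, with a mean of 0.0075 FPKM, and PSMB9, with a mean of 0.236 FPKM. The member nearest to the limit was PSMB8, with a mean of 2.83 FPKM.

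The samples were K562 cells, an established human myelogenous leukemia line with erythroid features, grown in culture and treated for 48 h. CBP30 and I-CBP112 are small molecules that bind the bromodomains of the acetyltransferases CREBBP and EP300, and bromodomains recognize acetylated lysines. There were 5 groups of 2 samples each: vehicle (DMSO), 2 µM CBP30, 5 µM CBP30, 2 µM I-CBP112 and 5 µM I-CBP112, 10 samples in total, and every treatment was compared with the same DMSO samples. The labels call the 2 samples of a group biological replicates of this line. The p-values therefore rest on the spread between such cultures, in 1 estimate per gene pooled over all 5 groups. That estimate includes the 2 µM CBP30 pair, whose median absolute difference over all tested genes was 0.20 on the log2 scale. In the other groups it was 0.05 to 0.07, so the p-values of all comparisons carry the wider spread of that pair. All 14 K562 markers, erythroid regulators and globins among them, were above the limit in the table. Their summed level was 2299 to 2367 FPKM in DMSO, 917 to 1216 FPKM at 2 µM CBP30, 774 to 791 FPKM at 5 µM CBP30, 1437 to 1582 FPKM at 2 µM I-CBP112 and 1379 to 1484 FPKM at 5 µM I-CBP112. Of 8 markers of other cell types 4 passed the limit, MS4A1 was at 0 in all groups, and their sum was 61.7 to 62.7 FPKM in DMSO and 38.3 to 39.8 FPKM at 5 µM CBP30, most of it EPCAM. EPCAM was called lower at 5 µM CBP30 (mean 59.2 FPKM in DMSO and 32.4 FPKM), whereas CD3E (1.10 and 3.23 FPKM) and COL1A1 (0.481 and 1.92 FPKM) were called higher by limma. In RNA from a whole culture, fewer cells of a type and less RNA per cell cannot be told apart, and the part of these marker changes in the proteasome values was not tested.

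The proteasome consists of a barrel, the 20S core, and of regulators that dock on its ends. The alpha subunits form the outer rings and the gate, the beta subunits the inner rings with the proteolytic sites, and the 19S cap recognizes, deubiquitinates, unfolds and feeds ubiquitylated substrates through its ring of ATPases. PSME1 and PSME2 make the alternative activator PA28 alpha-beta, PSME3 the nuclear activator PA28 gamma, PSME4 the activator PA200, and PSMF1 an inhibitor called PI31, while PSMG1 with PSMG2 and PSMG3 with PSMG4 form the chaperone pairs that build the alpha ring. In many cell types the transcription factor NFE2L1 raises the subunit genes together through antioxidant response elements when proteasome activity is low.

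Promoter sequences were available from RefSeq for 39 members. The first 250 bases before the transcription start are shown for the assembly chaperones PSMG1, PSMG2 and PSMG4 and for the activators PSME1 and PSME3, since these genes carried the largest or most repeated changes. They are printed 5′ to 3′ on the strand of the gene, and capitals mark letters of the antioxidant response element core TGACNNNGC, the NF-Y box CCAAT, the ETS core CCGGAAG and the E-box CACGTG on either strand, with no overlap between matches.
PSMG1 (GRCh38.p14 chr21:39183452-39183701, strand -): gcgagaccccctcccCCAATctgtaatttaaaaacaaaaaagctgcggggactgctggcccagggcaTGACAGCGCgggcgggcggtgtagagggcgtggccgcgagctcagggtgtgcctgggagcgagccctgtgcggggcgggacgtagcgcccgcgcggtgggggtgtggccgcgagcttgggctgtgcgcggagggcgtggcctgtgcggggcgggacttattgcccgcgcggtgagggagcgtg
PSMG2 (GRCh38.p14 chr18:12702792-12703041, strand +): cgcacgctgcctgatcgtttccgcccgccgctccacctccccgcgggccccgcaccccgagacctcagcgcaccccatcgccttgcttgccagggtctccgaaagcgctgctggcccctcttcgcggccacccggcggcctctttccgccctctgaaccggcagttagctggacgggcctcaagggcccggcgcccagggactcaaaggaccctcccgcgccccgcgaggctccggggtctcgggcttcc
PSMG4 (GRCh38.p14 chr6:3258697-3258946, strand +): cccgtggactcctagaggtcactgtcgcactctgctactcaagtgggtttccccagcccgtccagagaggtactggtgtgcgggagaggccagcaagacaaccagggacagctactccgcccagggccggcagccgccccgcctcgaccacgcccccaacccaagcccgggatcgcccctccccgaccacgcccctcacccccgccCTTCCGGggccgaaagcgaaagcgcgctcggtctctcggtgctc
PSME1 (GRCh38.p14 chr14:24135944-24136193, strand +): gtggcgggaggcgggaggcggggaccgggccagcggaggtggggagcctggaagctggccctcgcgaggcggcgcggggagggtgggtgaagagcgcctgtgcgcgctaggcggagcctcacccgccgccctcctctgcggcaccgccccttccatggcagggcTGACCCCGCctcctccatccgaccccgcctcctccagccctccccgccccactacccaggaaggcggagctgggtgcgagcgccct
PSME3 (GRCh38.p14 chr17:42833147-42833396, strand +): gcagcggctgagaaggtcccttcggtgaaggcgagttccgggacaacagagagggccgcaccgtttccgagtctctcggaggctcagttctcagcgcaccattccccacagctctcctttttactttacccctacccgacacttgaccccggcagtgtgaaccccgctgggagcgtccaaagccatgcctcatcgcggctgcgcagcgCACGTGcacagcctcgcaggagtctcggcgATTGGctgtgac
The window of PSMG1 held a CCAAT box at −235 to −231 and an antioxidant response element core at −183 to −175 from the start site. The window of PSMG4 held an ETS core on the opposite strand at −44 to −38, and none of the searched letters occurred in the window of PSMG2. PSME1 had an antioxidant response element core at −86 to −78, and PSME3 an E-box at −42 to −37 and a CCAAT box on the opposite strand at −12 to −8. Over the members, the antioxidant response element core was found in 9 of 39 windows (23.1%), against 11.03% of 27305 promoters and 12.3% of those of tested genes. The CCAAT box was found in 15 windows (38.5%, against 33.03% and 35.8%), the ETS core in 9 (23.1%, against 8.82% and 16.9%) and the E-box in 3 (7.69%, against 6.49% and 9.10%). These are matches of letters and show no binding.

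The libraries summed to between 547504 and 689095 FPKM, and their relative depth, read from 760 rarely detected genes, lay between 0.920 and 1.08 of the mean. Replicate 1 of 2 µM CBP30 stood apart: over 11760 genes with a known transcript length, its deviation from the mean of all samples correlated with length at a Spearman rho of −0.66, against 0.35 and 0.34 in the samples with 5 µM CBP30 and −0.11 to 0.23 in the others. Proteasome transcripts are short, with a median length of 1518 bases against 3158.5 bases over the genes with a length. In the 2 µM CBP30 group, replicate 1 was above replicate 2 in 38 of 45 members, with a median difference of 0.25 on the log2 scale, while the median differences in the other groups lay between −0.08 and 0.02. Results that rest on this library are therefore given with and without it.

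Proteasome genes were called in both directions with CBP30, and the lowest fold changes with 5 µM were those of the PSMG assembly chaperones. Values were tested as log2(FPKM + 1) with limma, and a gene was called at a Benjamini-Hochberg adjusted p under 0.05 over all 12788 genes. With 5 µM CBP30, 10 of 45 members were called lower than DMSO and 4 higher, against 25.4% of all tested genes called lower and 21.2% called higher. Their median log2 fold change was −0.12, against −0.01 over all tested genes, and it was −0.0019 with quantile normalization and 0.02 with the length trend removed. With 2 µM CBP30, 3 members were called lower and 4 higher, beside 16.3% and 15.9% of all genes. With I-CBP112 no member was called by limma in either direction at 5 µM, beside 3.28% lower and 3.84% higher of all genes, or at 2 µM, beside 0.735% lower and 0.868% higher. At an unadjusted p under 0.05 there were 4 members at 5 µM I-CBP112 (3 lower, 1 higher) and 1 at 2 µM (lower). Without replicate 1 or replicate 2 of 2 µM CBP30, which enter the estimate of the spread, more genes were called at 5 µM I-CBP112. This held among the members and among all tested genes. Between the CBP30 doses, 13 members were called lower at the higher dose and 5 were called higher, beside 21.3% and 17.6% of all genes. Between the compounds at 5 µM, 5 members were called lower and 3 higher with CBP30 than with I-CBP112, beside 17.9% and 13.6% of all genes. The share of members called was above that of all genes in the lower direction between the doses (28.9%) and below it in the other 11 counts. Of the 45 members, 27 were called in none of the 4 treatments. The same was not counted over all genes, so nothing particular to the members is read from the 27.

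These counts depended on the scaling and on single libraries. With 5 µM CBP30, quantile normalization gave 6 lower and 8 higher, beside 3178 lower and 3151 higher of 12788 genes. Removal of the trend with transcript length gave 12 lower and 9 higher, beside 3504 and 3450 of 11760 genes. Without either library of 2 µM CBP30 more were called in both directions, among the members and among all tested genes. Without any 1 library of DMSO, 5 µM CBP30 or 5 µM I-CBP112 fewer were called in both directions, again among the members and among all genes. Such a fit has fewer samples and gives the 2 µM CBP30 pair more weight in the pooled spread. A call lost in this way, here and below, is therefore not read as a fault of the library left out. By role, 0 of 16 core genes were called lower and 1 higher with 5 µM CBP30, and 5 of 20 cap genes lower and 2 higher. Of 9 activators and assembly factors 5 were called lower and 1 higher. All tested genes gave 25.4% lower and 21.2% higher. Without replicate 1 or replicate 2 of 2 µM CBP30 more core and cap genes were called in both directions, as were more of all tested genes. With quantile normalization the counts by role were 0 and 4, 2 and 3, and 4 and 1. The difference between roles was not tested. The median log2 fold changes were −0.05 for the core, −0.14 for the cap and −0.24 for the activators and assembly factors, and that of the core was positive with quantile normalization (0.06) and with the length trend removed (0.09).

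**Figure D1:**
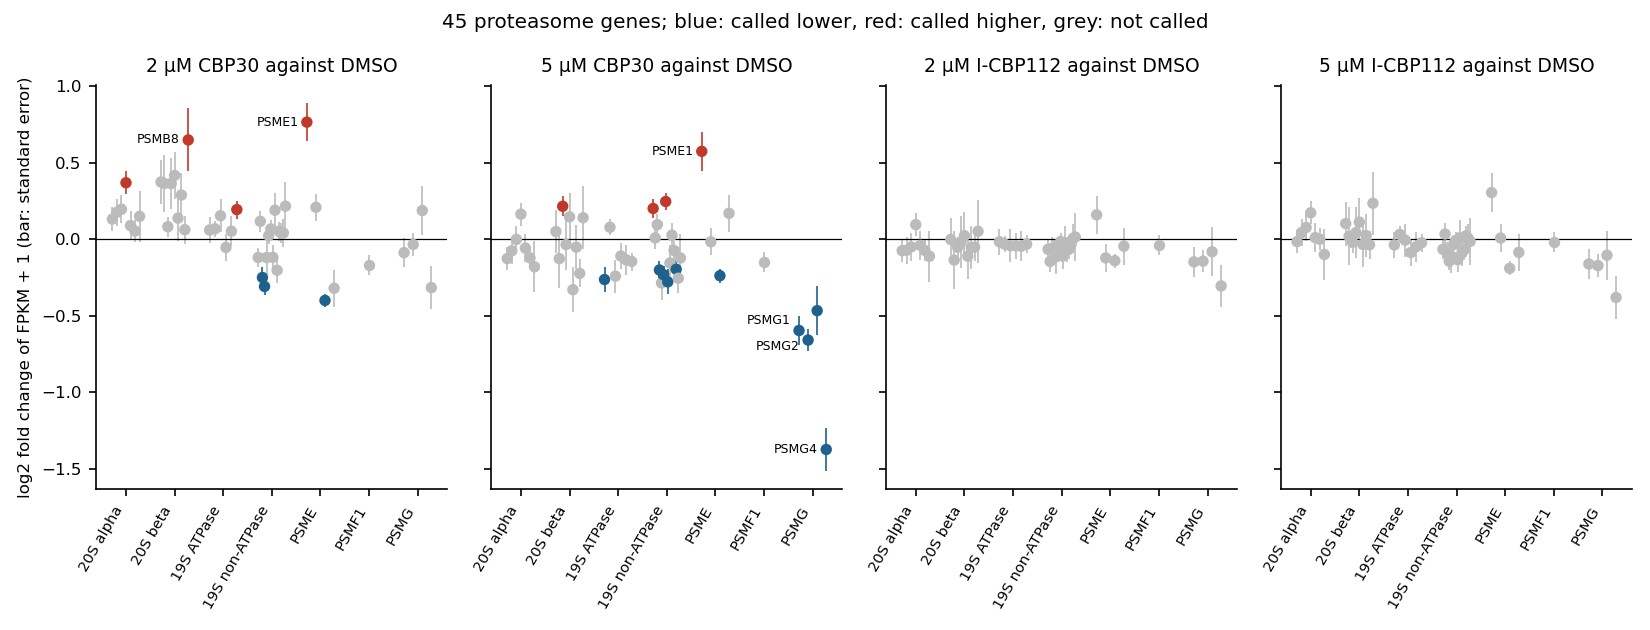
Log2 fold change against DMSO on the log2(FPKM + 1) scale (vertical axis, with standard errors) of the 45 proteasome genes in the 4 treatments, ordered by role. Blue points were called lower and red points higher at an adjusted p under 0.05 (limma), grey points were not called. The 4 PSMG genes lie lowest with 5 µM CBP30, PSMG4 at −1.37, and PSME1 lies highest at 0.57.

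In DMSO the most abundant members were core genes, although the core also held the lowest, PSMB8 with 2.23 FPKM. PSMB1, which encodes a beta subunit, had the highest mean of all members, 319.2 FPKM, followed in the core by the alpha subunit gene PSMA1 at 316.7 FPKM. These differed by less than the spread between the DMSO samples (312.8 and 325.5 FPKM for PSMB1). The highest cap genes were PSMD3 and PSMD4, with 147.0 and 145.3 FPKM, also within the spread between samples. Among the activators and assembly factors PSMG1 led with 122.6 FPKM and PSMF1 was the lowest with 30.6 FPKM. Summed over the members, FPKM was 5123 ± 41.0 (SD, n = 2) in DMSO and 4791 ± 41.4 at 5 µM CBP30, or 93.5% of DMSO, while the sum over all tested genes was 89.6% of DMSO. The core sum was 98.1% of DMSO, the cap sum 92.2% and the sum of the 4 PSMG genes 60.1%.

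All 4 assembly chaperone genes were called lower than DMSO with 5 µM CBP30, as were 25.4% of all tested genes. A lower log2 fold change than that of PSMG4 was found in 1.57% of tested genes. The shares were 8.18% for PSMG2, 9.77% for PSMG1 and 14.7% for PSMG3. PSMG4 (chromosome 6, 3231637 to 3303607 on the hg19 genome, plus strand) encodes the partner of PSMG3. It had 74.4 and 70.8 FPKM in DMSO, 67.7 and 49.9 FPKM at 2 µM CBP30 and 26.7 and 28.2 FPKM at 5 µM CBP30. With I-CBP112 it had 55.6 and 61.8 FPKM at 2 µM and 59.2 and 52.1 FPKM at 5 µM. All treated samples lay below both DMSO samples, and the 5 µM CBP30 samples were the lowest and did not overlap with any other group. The log2 fold change with 5 µM CBP30 was −1.37 (SE 0.139, limma adjusted p = 0.000274), which left 37.8% of the DMSO mean. It was −0.32 at 2 µM CBP30 (adjusted p = 0.122), −0.38 at 5 µM I-CBP112 (adjusted p = 0.163) and −0.30 at 2 µM I-CBP112 (adjusted p = 0.399, limma). The change at 2 µM CBP30 was called without replicate 1 of that group (log2 fold change −0.53, adjusted p = 0.008 in limma) and after removal of the length trend (−0.51, adjusted p = 0.000199).

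PSMG1 and PSMG2 encode the other chaperone pair. PSMG1 (chromosome 21, 40546695 to 40555414 on hg19, minus strand) had 123.8 and 121.4 FPKM in DMSO, 129.0 and 103.1 FPKM at 2 µM CBP30, 82.3 and 79.3 FPKM at 5 µM CBP30, 107.6 and 113.6 FPKM at 2 µM I-CBP112 and 109.1 and 109.8 FPKM at 5 µM I-CBP112. PSMG2 (chromosome 18, 12658042 to 12728944 on hg19, plus strand) had 91.6 and 95.6 FPKM in DMSO, 97.9 and 85.3 FPKM at 2 µM CBP30, 57.6 and 60.3 FPKM at 5 µM CBP30, 82.4 and 86.9 FPKM at 2 µM I-CBP112 and 84.7 and 81.2 FPKM at 5 µM I-CBP112. For both genes the 5 µM CBP30 samples were the lowest and overlapped with no other group, whereas at 2 µM CBP30 the replicates lay on either side of DMSO. PSMG1 was at 65.9% of the DMSO mean with 5 µM CBP30 (log2 fold change −0.60, SE 0.0971, limma adjusted p = 0.0023). PSMG2 was at 63.0% (−0.66, SE 0.0735, limma adjusted p = 0.00042). The calls of PSMG1, PSMG2 and PSMG4 against DMSO held in all 21 settings that were run.

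PSMG3 (chromosome 7, 1606968 to 1610641 on hg19, minus strand) had 56.2 and 51.7 FPKM in DMSO, 75.2 and 50.3 FPKM at 2 µM CBP30, 38.6 and 38.9 FPKM at 5 µM CBP30, 50.3 and 51.5 FPKM at 2 µM I-CBP112 and 51.4 and 48.8 FPKM at 5 µM I-CBP112. It was the least changed of the 4 with 5 µM CBP30, at 71.8% of DMSO (log2 fold change −0.47, SE 0.16, limma adjusted p = 0.0484). This call held in 10 of 21 settings and was lost without any 1 of the 8 libraries outside the 2 µM CBP30 group. In that group the replicates of PSMG3 lay furthest apart (75.2 and 50.3 FPKM), and they enter its standard error. Against 2 µM CBP30, all 4 PSMG genes were lower at 5 µM, with log2 fold changes of −1.06 for PSMG4, −0.65 for PSMG3, −0.62 for PSMG2 and −0.51 for PSMG1 (limma adjusted p = 0.00321, 0.0207, 0.0024 and 0.00998). The value of PSMG3 was −0.37 without replicate 1 of 2 µM CBP30 and −0.94 without replicate 2. The calls of PSMG1 and PSMG3 between doses were lost without either 5 µM CBP30 library (adjusted p = 0.0554 and 0.0686, and 0.095 and 0.0974, limma).

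At the matched dose of 5 µM, CBP30 gave lower levels than I-CBP112 for 3 of the 4 chaperone genes. The difference was −0.99 on the log2 scale for PSMG4, −0.49 for PSMG2 and −0.43 for PSMG1 (limma adjusted p = 0.00248, 0.00334 and 0.0152). The call of PSMG1 was lost without any 1 of the 4 libraries compared (adjusted p = 0.0665 to 0.0922, limma). For PSMG3 the difference was −0.36 (95% confidence interval −0.739 to 0.0164, adjusted p = 0.13), which was not called. With I-CBP112, all 4 genes were below both DMSO samples at 2 µM and at 5 µM, with log2 fold changes of −0.38 to −0.10 at 5 µM that were not called. Of all 45 members, 22 were below both DMSO samples at 2 µM I-CBP112 and 17 at 5 µM, and this was not counted over all genes. PSMG4 overlaps SLC22A23 and TUBB2B on the opposite strand and PSMG2 overlaps CEP76 and SPIRE1, and whether strand was used in counting is not given in the sources used here.

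**Figure D2:**
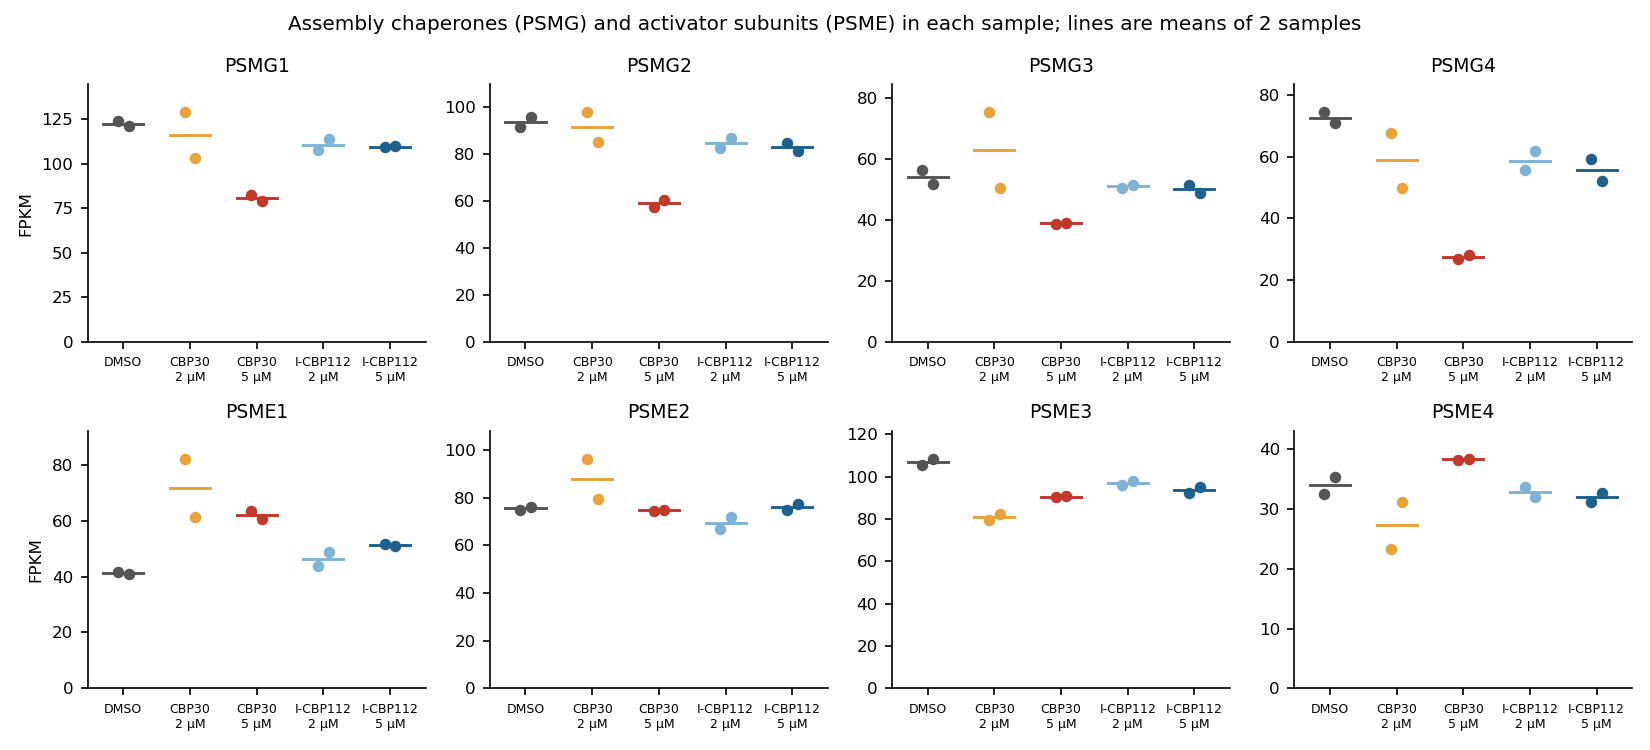
FPKM (vertical axes, starting at 0) of the 4 PSMG chaperone genes and the 4 PSME activator genes in each of the 10 samples, with a line at the mean of the 2 samples of a group. PSMG4 lies at 26.7 and 28.2 FPKM with 5 µM CBP30 against 74.4 and 70.8 in DMSO, and PSME1 is above DMSO in all treated samples.

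The activators split by subunit. PSME1 (chromosome 14, 24605372 to 24608176 on hg19, plus strand) encodes the alpha subunit of PA28 and had 41.6 and 41.1 FPKM in DMSO, 82.2 and 61.2 FPKM at 2 µM CBP30, 63.4 and 60.7 FPKM at 5 µM CBP30, 43.8 and 48.9 FPKM at 2 µM I-CBP112 and 51.7 and 50.9 FPKM at 5 µM I-CBP112. Every treated sample was above both DMSO samples. It rose by a log2 fold change of 0.57 with 5 µM CBP30 (SE 0.126, limma adjusted p = 0.00827) and of 0.76 with 2 µM (limma adjusted p = 0.00473), or 0.56 without replicate 1 of that group. The rise at 5 µM missed the threshold without replicate 1 of 5 µM CBP30 (adjusted p = 0.0534, limma). With 5 µM I-CBP112 the log2 fold change was 0.30 (adjusted p = 0.212, limma), and its difference from 5 µM CBP30 was 0.27 (adjusted p = 0.146). PSME1 overlaps EMC9 on the opposite strand.

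PSME2, whose product is the beta subunit that assembles with that of PSME1, had 74.96 and 76.17 FPKM in DMSO and 74.6 and 74.8 FPKM at 5 µM CBP30. Its log2 fold change there was −0.02 (95% confidence interval −0.226 to 0.193, limma adjusted p = 0.902), and 0.14 with the length trend removed, where it was called higher (limma adjusted p = 0.0267). The PSME1 to PSME2 ratio of FPKM, a value corrected for length, had a mean of 0.547 in DMSO, 0.812 at 2 µM CBP30, 0.831 at 5 µM CBP30, 0.667 at 2 µM I-CBP112 and 0.676 at 5 µM I-CBP112. All CBP30 samples (0.771 to 0.853) were above all I-CBP112 samples (0.657 to 0.692), which were above both DMSO samples (0.539 and 0.555).

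PSME3 (chromosome 17, 40976402 to 40995777 on hg19, plus strand), the gene of PA28 gamma, moved the other way. It had 105.6 and 108.6 FPKM in DMSO, 79.5 and 82.3 FPKM at 2 µM CBP30, 90.4 and 90.8 FPKM at 5 µM CBP30, 96.1 and 98.1 FPKM at 2 µM I-CBP112 and 92.2 and 95.3 FPKM at 5 µM I-CBP112. Every treated sample was below both DMSO samples, and the 2 µM CBP30 samples were the lowest. The log2 fold change was −0.24 with 5 µM CBP30 (SE 0.0451, limma adjusted p = 0.00449) and −0.40 with 2 µM CBP30 (limma adjusted p = 0.00108). Under quantile normalization the change at 5 µM was −0.12 and not called (adjusted p = 0.197, limma). With 5 µM I-CBP112 it was −0.19 (adjusted p = 0.052, limma). The gene was higher at 5 µM than at 2 µM CBP30 by 0.16 (limma adjusted p = 0.0301), a call lost without any 1 library of DMSO, 5 µM CBP30 or 5 µM I-CBP112 (adjusted p = 0.0502 to 0.124). PSME3 overlaps BECN1 on the opposite strand. The PSME3 to PSME1 ratio had a mean of 2.59 in DMSO, 1.16 at 2 µM CBP30, 1.46 at 5 µM CBP30, 2.10 at 2 µM I-CBP112 and 1.83 at 5 µM I-CBP112. At 2 µM CBP30 the ratio was 0.968 in replicate 1 and 1.34 in replicate 2.

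PSME4, the gene of PA200, had 32.6 and 35.4 FPKM in DMSO, 23.3 and 31.2 FPKM at 2 µM CBP30 and 38.1 and 38.4 FPKM at 5 µM CBP30. Neither dose was called against DMSO (log2 fold change 0.17 at 5 µM and −0.32 at 2 µM, adjusted p = 0.289 and 0.0842, limma). The doses differed by 0.49 (SE 0.122, limma adjusted p = 0.0213), or by 0.28 without replicate 1 of 2 µM CBP30, and the call was lost without either 5 µM CBP30 library (adjusted p = 0.0937 and 0.102). PSMF1, the inhibitor gene, had 30.7 and 30.5 FPKM in DMSO, 27.0 and 27.2 FPKM at 2 µM CBP30 and 26.8 and 28.4 FPKM at 5 µM CBP30. All 4 CBP30 samples lay below both DMSO samples, with log2 fold changes of −0.17 and −0.15 that were not called (adjusted p = 0.0843 and 0.103, limma).

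**Figure D3:**
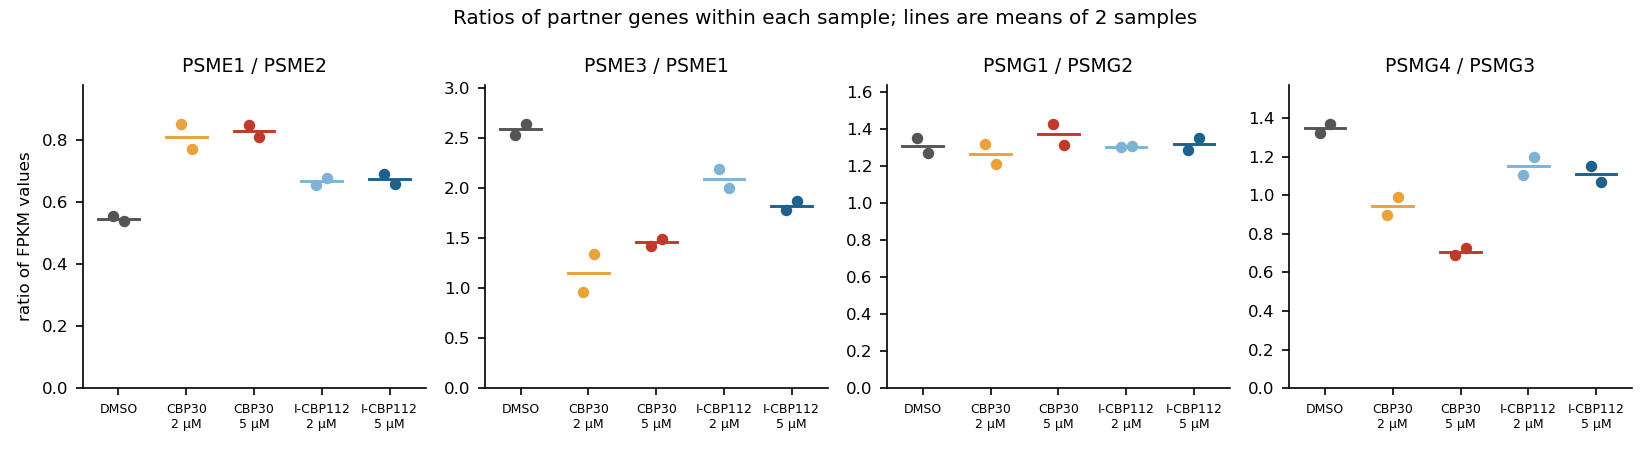
Ratio of FPKM between partner genes in each sample (vertical axes, no unit), with lines at the group means. PSMG4 to PSMG3 has a mean of 1.35 in DMSO and 0.708 with 5 µM CBP30, and PSME1 to PSME2 means of 0.547 and 0.831, while PSMG1 to PSMG2 lies between 1.26 and 1.37 in all group means.

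Among the chaperone pairs, the PSMG1 to PSMG2 ratio had group means of 1.26 to 1.37. The PSMG4 to PSMG3 ratio was 1.32 and 1.37 in DMSO, 0.900 and 0.992 at 2 µM CBP30, 0.691 and 0.725 at 5 µM CBP30, 1.10 and 1.20 at 2 µM I-CBP112 and 1.151 and 1.069 at 5 µM I-CBP112. Every treated sample was below DMSO, and the samples of each CBP30 dose were below all I-CBP112 samples. The ratios are given as values and were not tested.

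In the 20S core with 5 µM CBP30, 0 of 16 genes were called lower and 1 higher, beside 25.4% and 21.2% of all tested genes. More core genes were called without replicate 1 or replicate 2 of 2 µM CBP30, as were more of all tested genes. The log2 fold changes of the core ran from −0.33 to 0.22. PSMB2, which encodes a beta subunit without a proteolytic site, rose from 73.6 and 76.5 FPKM to 85.1 and 89.4 FPKM (log2 fold change 0.22, SE 0.0665, limma adjusted p = 0.0328). Both treated samples were above DMSO and above all other samples, which had 82.7 and 76.3 FPKM at 2 µM CBP30 and 69.2 and 75.5 FPKM at 2 µM I-CBP112. The call held in 11 of 21 settings and was lost without any 1 library of DMSO, 5 µM CBP30 or 5 µM I-CBP112 (adjusted p = 0.052 to 0.162). PSMB2 was also higher than with 5 µM I-CBP112 (75.8 and 72.1 FPKM, difference 0.24, limma adjusted p = 0.0341), a call lost without any 1 library of the same groups (adjusted p = 0.057 to 0.173). At an unadjusted p under 0.05 there were 2 core genes, 1 in each direction.

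The catalytic subunits come in constitutive and interferon-inducible forms. PSMB5, the constitutive gene of the chymotrypsin-like site, had 139.9 and 141.6 FPKM in DMSO, 185.5 and 129.5 FPKM at 2 µM CBP30 and 113.4 and 110.3 FPKM at 5 µM CBP30. The 5 µM samples were the lowest of all, with a log2 fold change of −0.33 that was not called (SE 0.147, adjusted p = 0.106, limma). The doses differed by −0.47 (limma adjusted p = 0.0425), or by −0.21 without replicate 1 of 2 µM CBP30, and the call was lost without any 1 of the 8 libraries outside that group (adjusted p = 0.0667 to 0.16). PSMB7, of the trypsin-like site, had 167.6 and 173.4 FPKM in DMSO and 145.3 and 146.5 FPKM at 5 µM CBP30 (log2 fold change −0.22, adjusted p = 0.082, limma). PSMB6, of the caspase-like site, had 121.7 and 124.1 FPKM in DMSO and 121.7 and 115.4 FPKM at 5 µM CBP30 (−0.05, adjusted p = 0.794, limma).

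The inducible genes were low. PSMB8, the counterpart of PSMB5, had 2.38 and 2.08 FPKM in DMSO, 5.407 and 2.999 FPKM at 2 µM CBP30, 2.87 and 2.28 FPKM at 5 µM CBP30, 2.38 and 2.32 FPKM at 2 µM I-CBP112 and 2.61 and 3.01 FPKM at 5 µM I-CBP112. The rise at 2 µM CBP30 (log2 fold change 0.65, SE 0.206, limma adjusted p = 0.049) rested on replicate 1. Without that sample the log2 fold change was 0.31 (adjusted p = 0.1, limma), and the call was lost without any 1 library except replicate 2 of 2 µM CBP30. PSMB10, the counterpart of PSMB7, had 24.5 and 21.5 FPKM in DMSO and 20.03 and 21.88 FPKM at 5 µM CBP30 (−0.13, adjusted p = 0.616, limma). PSMB9, the counterpart of PSMB6, was under the limit, with 0 to 0.541 FPKM over the samples, and was not tested.

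With 2 µM CBP30, all 16 core genes had a positive log2 fold change, with a median of 0.19, and 2 were called higher. In replicate 1 the median of the core was 0.42 above the DMSO mean and 16 of 16 genes were above it, whereas in replicate 2 the median was 0.04 and 11 of 16 were above. PSMA4, an alpha subunit gene, was the called member that did not rest on replicate 1: it had 265.1 and 261.6 FPKM in DMSO and 362.3 and 319.6 FPKM at 2 µM CBP30 (log2 fold change 0.37, SE 0.0745, limma adjusted p = 0.0106). Without replicate 1 the value was 0.28 (limma adjusted p = 0.0116), and without either DMSO sample the call was lost (adjusted p = 0.057 and 0.0655). PSMA4 had 291.4 and 298.9 FPKM at 5 µM CBP30 (log2 fold change 0.16, adjusted p = 0.111, limma).

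The 19S cap was called in both directions with 5 µM CBP30. The genes lower than DMSO were PSMD3 and PSMD12, of the lid, PSMD14 and PSMD7, whose products form the deubiquitinating pair, and PSMC1, an ATPase of the base. The genes higher than DMSO were PSMD2 and PSMD1, the large scaffold subunits of the base. PSMD3 had 148.6 and 145.4 FPKM in DMSO and 122.3 and 119.8 FPKM at 5 µM CBP30 (log2 fold change −0.28, SE 0.0825, limma adjusted p = 0.0286). PSMC1 had 95.6 FPKM in each DMSO sample and 80.7 and 78.4 FPKM at 5 µM CBP30 (−0.26, SE 0.0839, limma adjusted p = 0.0373). PSMD2 had 76.9 and 78.4 FPKM in DMSO and 92.6 and 92.0 FPKM at 5 µM CBP30 (0.25, SE 0.0555, limma adjusted p = 0.00942). In all 3 genes the 5 µM CBP30 samples did not overlap with DMSO, and none of the changes exceeded 0.28 on the log2 scale. Such separation was common: of the 20 cap genes, 14 were below both DMSO samples in both 5 µM samples and 5 were above. It was not counted over all genes. In the other treatments PSMD3 had 148.6 and 123.3 FPKM at 2 µM CBP30, 135.2 and 137.1 FPKM at 2 µM I-CBP112 and 133.7 and 134.2 FPKM at 5 µM I-CBP112. PSMC1 had 108.0 and 92.1 FPKM, 89.4 and 99.9 FPKM, and 94.05 and 92.30 FPKM in the same order, and PSMD2 had 84.8 and 78.2 FPKM, 74.7 and 79.0 FPKM, and 78.4 and 76.0 FPKM. For PSMD3 and PSMC1 the 5 µM CBP30 samples were the lowest of all 10, and for PSMD2 they were the highest.

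The other cap genes called with 5 µM CBP30 were PSMD14 (log2 fold change −0.23, limma adjusted p = 0.0126), PSMD12 (−0.20, 0.0266), PSMD7 (−0.20, 0.0426) and PSMD1 (0.20, 0.0321). Cap calls were lost in some fits without 1 library, in which the 2 µM CBP30 pair weighs more in the pooled spread. PSMD2 missed the threshold without replicate 1 of DMSO (adjusted p = 0.0579, limma) or replicate 1 of 5 µM CBP30 (0.053), and PSMD14 without replicate 2 of DMSO (0.0753) or replicate 1 of 5 µM CBP30 (0.0817). PSMD12 lost its call without any 1 library of DMSO or 5 µM CBP30 (adjusted p = 0.062 to 0.133, limma). PSMD3 and PSMC1 lost theirs without any 1 library of DMSO, 5 µM CBP30 or 5 µM I-CBP112 (0.0521 to 0.124 and 0.0638 to 0.154). PSMD1 and PSMD7 lost theirs without any 1 of the 8 libraries outside 2 µM CBP30 (0.0511 to 0.162 and 0.0572 to 0.201). PSMD12, PSMD14 and PSMD7 were also not called under quantile normalization, with log2 fold changes of −0.08, −0.11 and −0.08. PSMD14 and PSMD7 were not called with the length trend removed, with −0.09 and −0.06.

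With 2 µM CBP30, PSMD12 was lower as well. It had 73.1 and 76.3 FPKM in DMSO, 57.0 and 63.4 FPKM at 2 µM CBP30 and 65.1 and 64.6 FPKM at 5 µM CBP30, so that all CBP30 samples were below DMSO. The log2 fold change at 2 µM was −0.31 (SE 0.0584, limma adjusted p = 0.0083), and −0.28 without replicate 2 of DMSO, where the call was lost (adjusted p = 0.0597). PSMD11, a lid subunit gene, had 81.1 and 80.6 FPKM in DMSO and 62.7 and 73.4 FPKM at 2 µM CBP30 (log2 fold change −0.25, limma adjusted p = 0.0356, or −0.14 without replicate 1 of 2 µM CBP30). PSMC6, an ATPase gene, had 95.2 and 102.6 FPKM in DMSO and 116.7 and 109.7 FPKM at 2 µM CBP30 (0.19, limma adjusted p = 0.0424). PSMD11 lost its call without any 1 of the 8 libraries outside 2 µM CBP30 (adjusted p = 0.0608 to 0.135), and PSMC6 without any 1 library except replicate 2 of 2 µM CBP30 (0.0646 to 0.209, limma). When only the 2 groups were fitted with limma, no member was called at 2 µM CBP30 (lowest adjusted p = 0.0798). Of all 12788 genes that fit called 164 lower and 143 higher, so the lack of calls is not read as particular to the members. At an unadjusted p under 0.05 there were 2 members lower and 2 higher.

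Compared with 5 µM I-CBP112, 5 µM CBP30 gave lower levels of PSMD14 and PSMD7 (differences of −0.20 and −0.22 on the log2 scale, limma adjusted p = 0.0357 and 0.0408) and higher levels of PSMD1 and PSMD2 (0.27 and 0.25, limma adjusted p = 0.0171 and 0.0137). None of these 4 calls held without each library in turn: PSMD1 and PSMD2 lost theirs without any 1 of the 4 libraries compared (adjusted p = 0.0562 to 0.108 and 0.0572 to 0.0873), and PSMD14 and PSMD7 without any 1 of the 8 libraries outside 2 µM CBP30 (0.0578 to 0.179 and 0.0586 to 0.198). For PSMD3 the difference was −0.14 and for PSMC1 −0.23, neither called (adjusted p = 0.221 and 0.081, limma). Over the 45 members, the split of 5 lower and 3 higher became 3 and 5 under quantile normalization and 5 and 7 with the length trend removed. All genes gave 2254 and 2233 of 12788, and 2633 and 2487 of 11760, in these settings. Without either library of 2 µM CBP30 more members and more of all genes were called in both directions. Fewer were called without any 1 of the 4 libraries compared. The compounds were not tested against each other at 2 µM, where the core sum was 3434 and 2659 FPKM with CBP30 (replicates 1 and 2), 2374 and 2606 FPKM with I-CBP112 and 2519 and 2565 FPKM in DMSO. The cap sum at that dose was 2112 and 1851 FPKM with CBP30, 1839 and 1923 FPKM with I-CBP112 and 1943 and 1955 FPKM in DMSO, so that both sums lay above DMSO in replicate 1 of CBP30 and the cap sum below it in replicate 2.

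Between the CBP30 doses, the difference followed transcript length across the members. The log2 fold change of 5 µM over 2 µM correlated with length at a Spearman rho of 0.61 over 45 genes that share all libraries, against −0.52 for 2 µM CBP30 over DMSO and 0.10 for 5 µM over DMSO. These are descriptions across genes, which are not independent replicates. In 27 of 45 members the log2 fold changes against DMSO had opposite signs at the 2 doses, and in 13 of these the doses differed by the test. The same was not counted over all tested genes. Without replicate 1 of 2 µM CBP30, 12 members had opposite signs, and with the length trend removed 18 did. The split of 13 lower and 5 higher became 9 and 7 under quantile normalization, beside 2537 and 2546 of 12788 genes. With the length trend removed it became 9 and 12, beside 2496 and 2423 of 11760 genes. Without replicate 2 of 2 µM CBP30 more members and more of all genes were called in both directions. Without replicate 1 fewer of both were called lower. Fewer were called in both directions without any 1 library of DMSO, 5 µM CBP30 or 5 µM I-CBP112. At 2 µM CBP30 against DMSO, the split of 3 lower and 4 higher became 11 and 5 with the length trend removed, beside 2642 and 2646 of 11760 genes. The median log2 fold change of the members at 2 µM was −0.04 without replicate 1 of that group and 0.19 without replicate 2. Without any 1 library of the other groups fewer members and fewer of all genes were called in both directions.

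**Figure D4:**
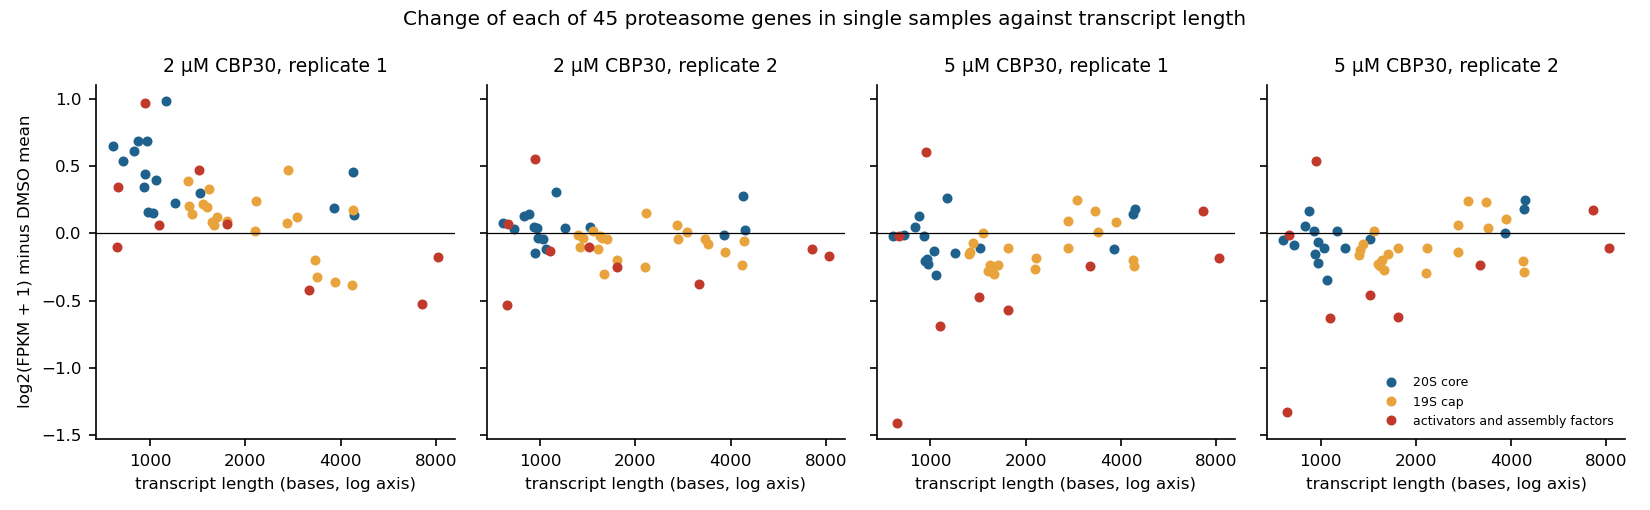
Difference from the DMSO mean on the log2(FPKM + 1) scale (vertical axis) against transcript length in bases (horizontal log axis) for the 45 proteasome genes in each of the 4 CBP30 samples. In replicate 1 of 2 µM CBP30, 37 of 45 genes lie above 0, the short ones highest, while 17 of 45 do in replicate 2 and 12 and 15 in the 5 µM samples.

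Other genes of the pathway were taken from fixed lists. Of 10 proteasome genes named outside the PSM scheme, 3 were called lower and none higher with 5 µM CBP30 (median log2 fold change −0.07), and 3 lower and 1 higher with 2 µM. All tested genes gave 25.4% lower and 21.2% higher at 5 µM and 16.3% and 15.9% at 2 µM, and the counts of this list and of those that follow are small numbers beside these shares, with nothing particular to a list read from them. UCHL5, a deubiquitinase of the cap, had 85.8 and 84.8 FPKM in DMSO and 61.3 and 61.0 FPKM at 5 µM CBP30 (log2 fold change −0.47, limma adjusted p = 0.000331). It fell by 0.37 at 2 µM CBP30 (limma adjusted p = 0.00227) and by 0.24 at 5 µM I-CBP112 (limma adjusted p = 0.0355). The last call was lost without any 1 of the 8 libraries outside 2 µM CBP30 (adjusted p = 0.056 to 0.204). KIAA0368, also called ECPAS, encodes a proteasome adaptor and scaffold and fell with both CBP30 doses (−0.46 and −0.44, limma adjusted p = 0.0156 and 0.0281). PAAF1, which binds ATPases of the cap during assembly, fell with 5 µM (−0.41, limma adjusted p = 0.0234) and had a value of 0.02 at 2 µM. The call of KIAA0368 at 5 µM was lost without any 1 library of DMSO or 5 µM CBP30 (adjusted p = 0.0587 to 0.0807, limma), and that of PAAF1 without either DMSO sample (0.0969 and 0.089) or replicate 1 of 5 µM CBP30 (0.137). UBE3C, a ubiquitin ligase of the proteasome, fell with 2 µM CBP30 (−0.28, limma adjusted p = 0.0349) and had a value of −0.01 at 5 µM. Without replicate 1 of 2 µM CBP30, the values at 2 µM were −0.15 for UBE3C and −0.23 for KIAA0368. Both of these calls at 2 µM were lost without any 1 of the 8 libraries outside 2 µM CBP30 (adjusted p = 0.0602 to 0.132 and 0.052 to 0.131, limma).

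Of 11 genes of NFE2L1, its processing and its partners, 4 were called lower and 2 higher with 5 µM CBP30 (median −0.18), and 3 lower and 1 higher with 2 µM. NFE2L1 had 53.9 and 53.4 FPKM in DMSO, 44.42 and 47.85 FPKM at 2 µM CBP30, 44.99 and 44.50 FPKM at 5 µM CBP30, 56.3 and 58.1 FPKM at 2 µM I-CBP112 and 52.6 FPKM in each sample at 5 µM I-CBP112. It was below DMSO in all 4 CBP30 samples, with log2 fold changes of −0.26 at 5 µM and −0.21 at 2 µM (limma adjusted p = 0.00474 and 0.0167). The call at 5 µM was lost under quantile normalization (−0.17, adjusted p = 0.0725) and that at 2 µM without either DMSO sample (0.0848 and 0.0744, limma). MAFF, a small Maf partner, had 4.68 and 4.39 FPKM in DMSO and 2.08 and 2.197 FPKM at 5 µM CBP30 (log2 fold change −0.82, limma adjusted p = 0.000867). NGLY1, the deglycosylase that processes NFE2L1, fell with 5 µM CBP30 (−0.26, limma adjusted p = 0.00355). DDI2, the protease that cleaves it, was called at 2 µM only (−1.24, limma adjusted p = 0.0135, or −0.75 without replicate 1 of 2 µM CBP30), a call lost without either DMSO sample (0.074 and 0.0671). DDI2 had 14.5 and 13.9 FPKM in DMSO, and 3.61 and 8.01 FPKM at 2 µM CBP30. The genes named from this list were picked by the size of the change and all fell with CBP30, so those called higher are not among them. Of the others, NPLOC4 had a mean of 36.0 FPKM in DMSO and 42.8 FPKM at 5 µM CBP30, and VCP 87.2 and 101.5 FPKM.

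Of 11 tested genes for ubiquitin, its activating enzymes and shuttle factors, 2 were called lower and 2 higher with 5 µM CBP30, and 2 lower and 3 higher with 2 µM. The shuttle factor gene UBQLN4 fell with 5 µM CBP30 (log2 fold change −0.44, limma adjusted p = 0.000354) and UBQLN2 rose (0.35, limma adjusted p = 0.00224). Of 8 tested genes of antigen processing, which uses the peptides that proteasomes make, 2 were called lower and 3 higher with 5 µM CBP30. TAP2, a subunit of the peptide transporter, had 11.17 and 11.03 FPKM in DMSO and 6.30 and 6.62 FPKM at 5 µM CBP30 (−0.70, limma adjusted p = 7.16e-05), and it fell by 0.49 at 2 µM (limma adjusted p = 0.000795). No gene of the antigen processing list was called with I-CBP112 at 5 µM by limma, beside 3.28% lower and 3.84% higher of all genes. With 8 genes nothing particular to the list is read from this.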

How the data were processed

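RNA from K562 cells was measured in 10 samples. Per the labels, the authors made stranded libraries from poly-A RNA and sequenced single reads. The submitters' processing notes name FastQC, TopHat2 2.0.10, Bowtie 1.0.0, SAMtools 0.1.19, Cufflinks 2.2.1, Cuffnorm and hg19, and the gene annotation and the strand setting are not given in the sources used here. The deposited values are FPKM, 1 column per sample, made by the authors without pooling, so a change in abundant genes shifts the others, and the depth in reads is unknown.

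The 12788 of 23284 genes whose average reached 0.5 FPKM were fitted as log2(FPKM + 1), a scale that understates the change of low genes, in limma 3.58.1 (R 4.3.3, eBayes with trend). The 5 groups shared 1 fit with 5 residual degrees of freedom and 2.15 prior ones, and Benjamini-Hochberg adjusted p under 0.05 was called. Scripts were tested on simulated data. Tables and figures used Python 3.11.15, pandas 2.3.3 and matplotlib 3.10.9. Transcript lengths and hg19 positions came from GENCODE, promoters from RefSeq (GRCh38.p14). PSMA7, PSMB1, PSMB6, PSMB7, PSMD4 and PSMG3 were not matched.

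Values per sample were given for the most changed called members of each role, the inducible and constitutive beta subunits, and the PSME, PSMF and PSMG genes. From the other lists up to 4 called genes and NFE2L1 were named, and some genes that this rule covers are not reported here. The members, lists and tests were chosen with earlier results of these data known. Correlations between the deviations of same-numbered samples were −0.07 to 0.09, so the numbers were not taken to pair samples. The alternatives were another pseudocount, 2 other filters, 2 scalings, eBayes without the trend, a fit of the groups compared, the replicate block, removal of the length trend with and without that block, and leaving out each library. Gene sets, proteins and splicing variants were not analysed here.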

Additional observations from a re-analysis of the deposited data

Results flagged for a closer look

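In 13 proteasome genes the log2 fold changes against DMSO had opposite signs at 2 and 5 µM CBP30 and the difference between the doses was called (limma, Benjamini-Hochberg adjusted). Between the doses 21.3% of all tested genes were called lower and 17.6% higher. Opposite signs were not counted over all genes, so nothing particular to the members is read from the 13. The doses share the DMSO samples, and the difference is 5 µM minus 2 µM on the log2(FPKM + 1) scale. It was negative for the core genes PSMA1 (−0.26), PSMB5 (−0.47) and PSMB7 (−0.29), the cap genes PSMC1 (−0.32), PSMC3 (−0.39), PSMC6 (−0.34), PSMD7 (−0.24), PSMD8 (−0.30) and PSMD14 (−0.26), and the chaperone gene PSMG3 (−0.65). It was positive for PSMD1 (0.32), PSMD11 (0.34) and PSME4 (0.49). Without replicate 1 of 2 µM CBP30, the library whose values moved with transcript length, all 13 kept the direction of the difference and 10 kept the call (not PSMA1, PSMB7 and PSMC1), and PSMC6, PSMD1, PSMD11 and PSME4 had both the call and opposite signs against DMSO. With the length trend removed, 10 of the 13 kept the direction and 7 the call: PSMC1, PSMC3, PSMC6, PSMD1, PSMD11, PSME4 and PSMG3. PSMC3 had 122.7 and 121.0 FPKM in DMSO, 153.4 and 120.0 FPKM at 2 µM CBP30 and 103.2 and 102.8 FPKM at 5 µM CBP30. PSMD1 had 64.2 and 66.4 FPKM in DMSO, 56.8 and 63.4 FPKM at 2 µM CBP30 and 73.4 and 77.0 FPKM at 5 µM CBP30. When only the 2 dose groups were fitted, none of these differences was called by limma. Of all 12788 genes that fit called 4 lower and 2 higher, so it cannot decide on these 13. Over all members there were then 8 lower and 3 higher at an unadjusted p under 0.05.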

How the results depend on the processing

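Counts of called proteasome genes are given for limma at an adjusted p under 0.05. The numbers called over all tested genes also changed with the setting, so a moved count is not read as particular to the members. For 5 µM CBP30 against DMSO (10 lower, 4 higher), the counts that moved by over 1.5 times were 6 lower with median centring, 6 lower and 8 higher with quantile normalization, 23 and 8 in a fit of the 2 groups only, and 9 higher with the length trend removed, with or without the replicate block. For 2 µM CBP30 (3 lower, 4 higher) they were 5 lower with quantile normalization, 0 and 0 in the fit of the 2 groups, and 11 lower with the length trend removed, with or without the block. For 5 against 2 µM CBP30 (13 lower, 5 higher) they were 3 higher with median centring, 0 and 0 in the fit of the 2 groups, 12 higher with the length trend removed and 13 higher and 7 lower with the block added. For CBP30 against I-CBP112 at 5 µM (5 lower, 3 higher) they were 3 lower and 2 higher with median centring, 3 and 5 with quantile normalization, 18 and 7 in the fit of the 2 groups, and 7 higher with the length trend removed, with or without the block.

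For I-CBP112 at 5 µM (0 and 0) there were 1 lower without a filter, 1 higher with quantile normalization, 3 lower and 2 higher in the fit of the 2 groups, 5 lower and 1 higher with the length trend removed, and 4 and 1 with the block added. At 2 µM there was 1 lower with the length trend removed, with or without the block. The replicate block alone gave 8 lower and 3 higher for 5 µM CBP30, 3 and 3 for 2 µM, 9 and 4 between doses, and 3 and 2 between compounds. Same-numbered samples did not deviate together.

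Leaving out each library in turn gave 4 to 21 lower and 0 to 8 higher for 5 µM CBP30, 1 to 9 and 1 to 25 for 2 µM, 2 to 34 and 0 to 7 between doses, 2 to 14 and 0 to 7 between compounds, 0 to 7 and 0 to 2 for 5 µM I-CBP112, and 0 to 1 and 0 to 0 for 2 µM I-CBP112.

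These log2 fold changes turned direction. With the length trend removed, with or without the block, PSMA3 was 0.16, PSME2 0.14 and UBB 0.12 for 5 µM CBP30 against DMSO. Between doses, PSMA1 was 0.0502 (0.0102 with quantile normalization), PSMA3 0.14, PSMA6 0.16, PSMB7 0.0493, PSMC4 0.17, PSMD6 0.16, PSMD7 0.0077, PSMD10 0.16 and PSME1 0.15, PSME2 0.13 with the block, and PSMF1 −0.28 without it. Between compounds, PSMD6 was 0.15 and PSME2 0.14, and PSMA4 was 0.19 with quantile normalization. Without 1 library of 2 µM CBP30, PSMD8 at that dose was −0.12 (replicate 1) or 0.20 (replicate 2), and KIAA0368 between doses −0.23 or 0.19. The cause was not tested. FPKM holds no counts, so precision rests on 2 samples a group.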
